A study of Homo sapiens with 21 samples.

Results

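Mitochondria keep a small circular genome of their own, and the proteins that copy it, read it and clear its RNA are made from nuclear genes. The 10 nuclear genes described here are TWNK and POLG (replication), TFAM, POLRMT, TFB1M and TFB2M (transcription), LRPPRC and SLIRP (RNA stability), and SUPV3L1 and PNPT1 (RNA decay). They were chosen by gene symbol, with earlier results of these data known, and are 10 of the 34021 genes in the expression table. All 10 passed the filter on low values and were among the 13775 genes tested.

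As background, POLRMT is the mitochondrial RNA polymerase. TFAM bends and packages mitochondrial DNA at the promoters, and TFB2M opens the DNA for the polymerase. TFB1M, a relative of TFB2M, methylates the small ribosomal RNA and is only grouped here with the transcription genes. TWNK is the helicase and POLG the catalytic subunit of the polymerase that replicate mitochondrial DNA. LRPPRC and SLIRP form a complex that binds mitochondrial mRNAs and protects them. SUPV3L1, a helicase, and PNPT1, an exoribonuclease also called PNPase, together degrade mitochondrial RNA, double-stranded forms included. PNPT1 is also known as a gene induced by type I interferon.

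The cells were H1975, a non-small-cell lung cancer line whose EGFR gene is mutant. All 3 groups, of 3 RNA-seq libraries each, were labelled with 8 days of treatment. DMSO_EV had vehicle and EV, which the labels do not spell out, in wild-type cells. Osi_Lin_EV, also wild-type, had osimertinib, a covalent EGFR inhibitor, and linsitinib, an inhibitor of the IGF1R and insulin receptor kinases, at 500 nM each; EV stands in the title of these samples and not in their treatment label. Osi_cIGF1R had osimertinib at 500 nM and overexpressed cIGF1R, a circular RNA of the IGF1R gene. Cells with osimertinib as the sole agent were not among the libraries used, so against DMSO_EV the drug and cIGF1R change together. Against Osi_Lin_EV linsitinib and cIGF1R do. By title EV changes with them in both, since it is named for DMSO_EV and Osi_Lin_EV and not for Osi_cIGF1R. In each comparison of Osi_cIGF1R these cannot be told apart. The 12 libraries of a circular RNA experiment in the same series were not analysed here.

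Levels are given as FPKM, fragments scaled to gene length and library size, so levels of different genes can be compared per length. Fold changes are differences of log2(FPKM + 1) from limma, and a gene is called higher or lower when its Benjamini-Hochberg adjusted p over all genes tested is under 0.05. Nothing in the labels states that the libraries within a group were separate cultures, and each p-value therefore rests on library-to-library spread that may be technical. In these bulk samples, fewer cells of a type and less RNA per cell cannot be told apart.

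Read depth is unknown. The summed FPKM of a library lay between 429553 and 474156 in DMSO_EV, 423319 and 432563 in Osi_Lin_EV, and 338034 and 381311 in Osi_cIGF1R. DMSO_EV replicate 2 stood apart with 443 FPKM of the RNA polymerase III transcript RN7SL1, against 46.4 and 36.1 in the others of its group. Osi_cIGF1R replicate 1 held 53.2 FPKM of it, against 3.16 and 6.37. Without both libraries the counts of factors called were the same except that POLG was no longer lower in Osi_cIGF1R than in DMSO_EV. Summed epithelial markers, led by KRT8, lay between 7724 and 10955 FPKM in all libraries. Summed markers of leukocytes, fibroblasts and endothelial cells were at most 4.48, 6.10 and 4.12 FPKM, with the leukocyte gene CD3E at 0 in Osi_cIGF1R, the fibroblast gene DCN at 0 in DMSO_EV, and COL1A2 and COL3A1 at 0 in Osi_cIGF1R. Of the 5 endothelial markers, 4 were in the file. Their sum moved with the groups at these low levels, from 3.55 to 4.12 FPKM in DMSO_EV, 0.171 to 0.240 in Osi_Lin_EV and 0.783 to 0.972 in Osi_cIGF1R, mostly as CDH5 (means 3.37, 0.114 and 0.482), and its part in the results was not tested. The fibroblast sum was 3.38 to 3.75, 3.35 to 3.71 and 5.602 to 6.104 FPKM in the same order, mostly as COL1A1, and the leukocyte sum 1.85 to 2.25, 2.36 to 3.30 and 2.53 to 4.48.

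Promoter letters are shown first for PNPT1, whose level turned differently from the rest, and for the 4 transcription genes. The tables of RefSeq (GRCh38.p14) gave a promoter entry, 250 bases before to 50 bases after the start, for 9 of the 10 genes. Each line below is 100 bases upstream of the start, read 5′ to 3′ on the strand of the gene. In PNPT1 (chr2:55693872-55693971, minus strand) capitals mark AANNGAAA on either strand, a short core of sites for interferon regulatory factors. In TFAM (chr10:58385302-58385401, plus strand), TFB1M (chr6:155314562-155314661, minus strand), TFB2M (chr1:246566262-246566361, minus strand) and POLRMT (chr19:633538-633637, minus strand), capitals mark GCGCANGCG, the core of sites for NRF1, a nuclear activator of mitochondrial genes.
PNPT1: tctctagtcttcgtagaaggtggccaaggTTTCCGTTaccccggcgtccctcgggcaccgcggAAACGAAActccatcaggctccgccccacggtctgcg
TFAM: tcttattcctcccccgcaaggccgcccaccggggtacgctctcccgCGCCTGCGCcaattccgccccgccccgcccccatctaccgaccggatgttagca
TFB1M: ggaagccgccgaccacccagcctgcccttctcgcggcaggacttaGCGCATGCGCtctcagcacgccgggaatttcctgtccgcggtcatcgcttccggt
TFB2M: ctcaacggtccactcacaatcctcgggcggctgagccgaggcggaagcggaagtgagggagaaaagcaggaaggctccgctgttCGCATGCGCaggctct
POLRMT: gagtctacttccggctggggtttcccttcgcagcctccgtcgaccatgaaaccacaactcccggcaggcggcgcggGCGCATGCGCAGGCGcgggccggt

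Both strands of each promoter window were searched. GCGCANGCG was found in 4 of the 9 factors and in 7.52% of 35116 promoters of the same length. The 4 were TFAM, TFB2M, POLRMT and the ribosomal RNA methyltransferase TFB1M. Its 2 matches in TFB1M and its 3 in POLRMT overlap each other. The first letters searched for interferon regulatory factors, GAAANNGAA, were found in 8.11% of promoters and, among the factors, in SUPV3L1 alone. AANNGAAA was chosen after the PNPT1 sequence was read, and it shares most of its letters with GAAANNGAA. It is common, in 22.8% of promoters, and was found in PNPT1, SUPV3L1, LRPPRC, POLRMT and TFAM. In PNPT1 its matches begin 98 and 64 bases before the start. CCGGAAGT, the core of sites for the ETS factor GABPA, was found in 4.14% of promoters and, among the factors, in POLRMT. A match describes letters only, and no binding was measured here.

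In both treated groups most of the 10 factors stood below their level in vehicle-treated cells, and 1 gene, PNPT1, stood far above it in Osi_cIGF1R. In Osi_Lin_EV against DMSO_EV, 7 of the 10 factors fell, 0 rose and 3 (POLRMT, TFB1M and POLG) were not called. Of all genes tested, 23.5% fell and 29.0% rose in that comparison. In Osi_cIGF1R against DMSO_EV, 9 factors fell and PNPT1 rose, where 35.8% of all genes fell and 33.1% rose. Of the 9, POLG was called by a narrow margin (limma adjusted p = 0.0403), and most alternative settings ended its call. Between Osi_cIGF1R and Osi_Lin_EV, 4 factors (POLRMT, TFB1M, POLG and LRPPRC) were lower in Osi_cIGF1R, PNPT1 was higher and 5 were not called, beside 34.8% of all genes lower and 25.9% higher. The median log2 fold changes of the factors were -0.66, -1.04 and -0.23 in that order, against 0.05, -0.03 and -0.09 over all genes tested. Without PNPT1 the factors' medians were -0.63, -1.05 and -0.26. The comparisons share libraries, DMSO_EV in the first and second and each treated group in 2 of them, so they are not independent of each other.

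**Figure D1:**
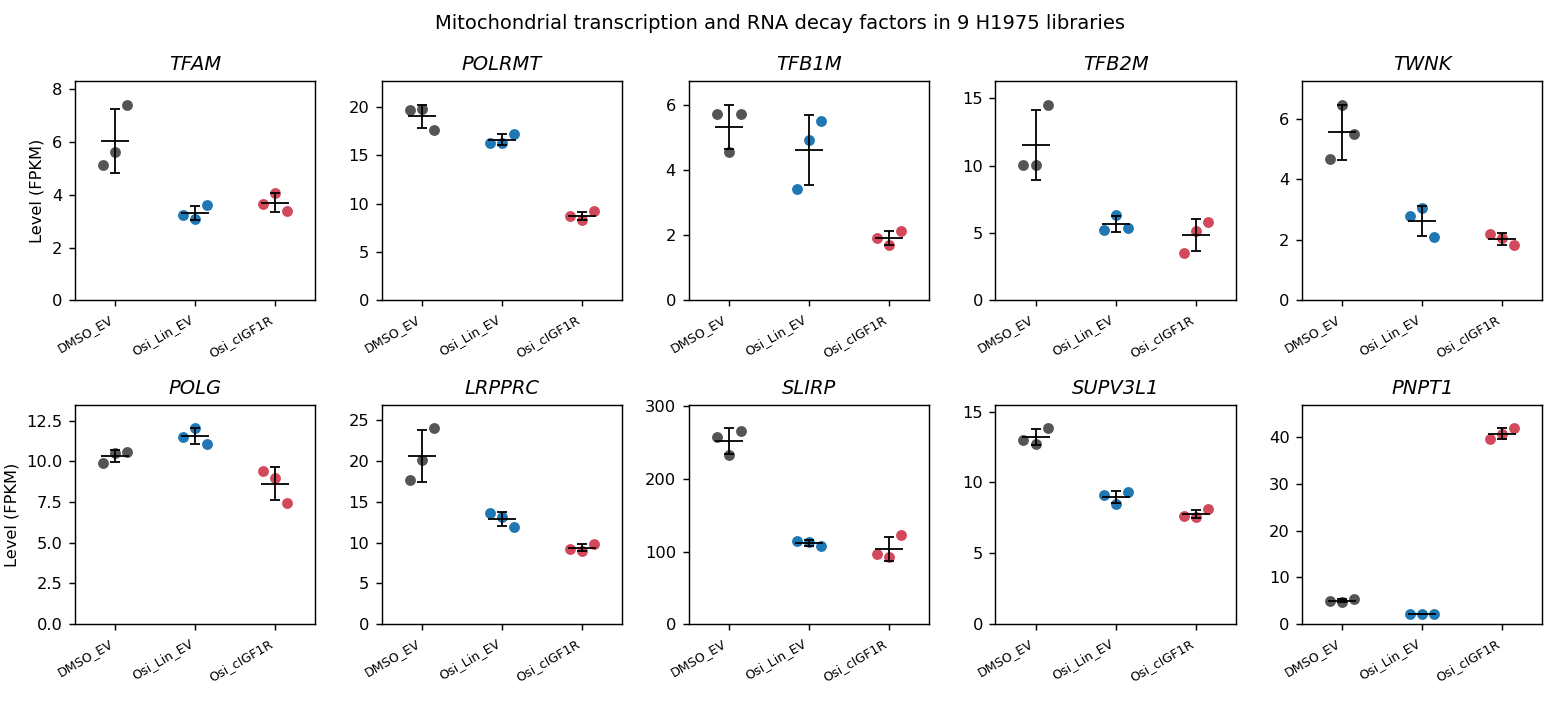
Level of each factor in FPKM (y axis, from 0, a scale of its own in each panel) in the 9 libraries, by group (x axis). Points are libraries, and bars are the mean and SD of 3. SLIRP, TWNK, TFB2M and TFAM stand low in both treated groups, POLRMT and TFB1M stand low in Osi_cIGF1R, and PNPT1 lies between 39.6 and 41.9 in Osi_cIGF1R against at most 5.42 elsewhere.

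PNPT1 (chromosome 2, 55634061 to 55693844 in GRCh38.p14) was the one factor called in opposite directions in the treated groups against DMSO_EV. Its level was 4.94, 4.72 and 5.42 FPKM in DMSO_EV, 2.21, 2.27 and 2.23 in Osi_Lin_EV, and 39.6, 40.6 and 41.9 in Osi_cIGF1R. The 3 groups did not overlap, with Osi_Lin_EV lowest and Osi_cIGF1R highest. The mean of 40.7 ± 1.14 FPKM in Osi_cIGF1R was 8.10 times the 5.03 ± 0.360 of DMSO_EV and 18.2 times the 2.24 ± 0.0286 of Osi_Lin_EV (SD, n = 3). PNPT1 rose against DMSO_EV by a log2 fold change of 2.79 (SE 0.08, 95% interval 2.61 to 2.98, limma adjusted p = 6.68e-12), rank 196 of the 13775 genes by size of rise. Against Osi_Lin_EV the log2 fold change was 3.69 (SE 0.08, limma adjusted p = 5.07e-13), rank 82. In Osi_Lin_EV PNPT1 was 2.25 times lower than in DMSO_EV, a log2 fold change of -0.89 (SE 0.08, limma adjusted p = 1.49e-06).

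SUPV3L1 (chromosome 10, 69180234 to 69209093), the helicase that works with PNPT1, had no such rise. It measured 12.97, 12.74 and 13.82 FPKM in DMSO_EV, 9.14, 8.46 and 9.31 in Osi_Lin_EV, and 7.66, 7.55 and 8.09 in Osi_cIGF1R. All treated libraries were below all vehicle libraries. SUPV3L1 fell in Osi_Lin_EV by 0.51 on the log2 scale (SE 0.08, limma adjusted p = 0.000218) and in Osi_cIGF1R by 0.69 (SE 0.08, limma adjusted p = 7.15e-06). The treated groups did not overlap each other, but their difference was not called (log2 fold change -0.18, 95% interval -0.37 to -0.00224, limma adjusted p = 0.0740). In Osi_cIGF1R the nuclease of the pair was thus higher and the helicase lower than in vehicle.

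The ratio of PNPT1 to SUPV3L1 within each library was 0.381 ± 0.0111 in DMSO_EV, 0.250 ± 0.0156 in Osi_Lin_EV, and 5.24 ± 0.117 for Osi_cIGF1R (SD, n = 3). On the log scale the ratio in Osi_cIGF1R was 13.8 times that in DMSO_EV and 21.0 times that in Osi_Lin_EV. The groups did not overlap, and the exact permutation test of each of the 3 differences gave p = 0.1, the smallest that 3 libraries against 3 allow (0.136 after adjustment over 15 tests of 5 pairs).

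The mRNA-protecting pair also stood lower after treatment. SLIRP (chromosome 14, 77708071 to 77717598) was the most abundant of the 10 factors in every group. It measured 258, 233 and 266 FPKM in DMSO_EV, 114, 113 and 107 in Osi_Lin_EV, and 96.0, 92.2 and 123 in Osi_cIGF1R. Both treated groups lay below every vehicle library and overlapped each other. SLIRP fell by 1.17 on the log2 scale in Osi_Lin_EV (SE 0.12, limma adjusted p = 2.28e-06) and by 1.29 in Osi_cIGF1R (SE 0.12, limma adjusted p = 3.77e-07). Its log2 fold change was the most negative of the 10 in Osi_Lin_EV, and in Osi_cIGF1R with a pseudocount of 1. As a ratio of mean FPKM, TFB1M (2.80 times lower) and TWNK (2.74) were further below DMSO_EV in Osi_cIGF1R than SLIRP (2.44). Between the treated groups the log2 fold change of SLIRP was -0.12, with a 95% interval of -0.37 to 0.13 (limma adjusted p = 0.398).

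LRPPRC (chromosome 2, 43886224 to 43996265), the large RNA-binding partner of SLIRP, measured 17.63, 20.15 and 24.01 FPKM in DMSO_EV, 13.6, 13.2 and 11.9 in Osi_Lin_EV, and 9.20, 9.02 and 9.85 in Osi_cIGF1R. The 3 groups stood in that order with no overlap. Its log2 fold change was -0.63 in Osi_Lin_EV (SE 0.11, limma adjusted p = 0.000304), -1.05 in Osi_cIGF1R against DMSO_EV (limma adjusted p = 1.52e-06) and -0.42 between the treated groups (limma adjusted p = 0.00456). The ratio of LRPPRC to SLIRP was 0.0817 ± 0.0117 in DMSO_EV, 0.115 ± 0.00394 in Osi_Lin_EV, and 0.0913 ± 0.00952 for Osi_cIGF1R (SD, n = 3). Osi_Lin_EV lay above both other groups (exact permutation p = 0.1 for each), while Osi_cIGF1R and DMSO_EV overlapped (exact permutation p = 0.4).

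The 4 genes grouped here under transcription followed 2 patterns. TFAM and TFB2M, which act with the polymerase at the promoter, were low in both treated groups, whereas POLRMT and TFB1M were called lower in Osi_cIGF1R and not in Osi_Lin_EV.

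TFAM (chromosome 10, 58385410 to 58399220) measured 5.12, 5.61 and 7.42 FPKM in DMSO_EV, 3.25, 3.08 and 3.60 in Osi_Lin_EV, and 3.65, 4.07 and 3.37 in Osi_cIGF1R. The treated groups overlapped each other and lay below vehicle. TFAM fell by 0.70 on the log2 scale in Osi_Lin_EV (SE 0.12, limma adjusted p = 0.000315) and by 0.57 in Osi_cIGF1R (SE 0.12, limma adjusted p = 0.000876). The difference between the treated groups was 0.12, with a 95% interval of -0.14 to 0.39 (limma adjusted p = 0.391).

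TFB2M (chromosome 1, 246540561 to 246566261) varied most among the vehicle libraries relative to its mean, with 10.0, 10.1 and 14.5 FPKM. It measured 5.26, 6.35 and 5.34 FPKM in Osi_Lin_EV and 3.53, 5.19 and 5.84 in Osi_cIGF1R. Every treated library was below every vehicle library, and the treated groups overlapped. The log2 fold change was -0.90 in Osi_Lin_EV (SE 0.16, limma adjusted p = 0.000496) and -1.10 in Osi_cIGF1R (SE 0.16, limma adjusted p = 5.22e-05). It was -0.20 between the treated groups, with a 95% interval of -0.56 to 0.15 (limma adjusted p = 0.303).

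POLRMT (chromosome 19, 617221 to 633537), the polymerase, measured 19.7, 19.8 and 17.6 FPKM in DMSO_EV, 16.3, 16.3 and 17.3 in Osi_Lin_EV, and 8.77, 8.36 and 9.20 in Osi_cIGF1R. Osi_cIGF1R stood well below both other groups, which lay close together without overlapping. POLRMT fell in Osi_cIGF1R by 1.03 on the log2 scale against DMSO_EV (SE 0.09, limma adjusted p = 1.65e-07) and by 0.85 against Osi_Lin_EV (SE 0.09, limma adjusted p = 2.53e-06). In Osi_Lin_EV against DMSO_EV the value was -0.18 (limma adjusted p = 0.0870). That difference was called under median-of-ratios rescaling (limma adjusted p = 0.0399) and without DMSO_EV replicate 3 (limma adjusted p = 0.037), with a range of 0.037 to 0.264 over 20 alternatives.

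TFB1M (chromosome 6, 155229871 to 155314484), the ribosomal RNA methyltransferase, measured 5.72, 4.55 and 5.72 FPKM in DMSO_EV, 3.43, 4.92 and 5.50 in Osi_Lin_EV, and 1.90, 1.69 and 2.12 in Osi_cIGF1R. Osi_Lin_EV overlapped DMSO_EV, and Osi_cIGF1R lay below both. The log2 fold change in Osi_cIGF1R was -1.12 against DMSO_EV (SE 0.14, limma adjusted p = 8.62e-06) and -0.94 against Osi_Lin_EV (SE 0.14, limma adjusted p = 7.48e-05). In Osi_Lin_EV it was -0.19, with a 95% interval of -0.49 to 0.12 (limma adjusted p = 0.281). TFB1M overlaps CLDN20, at most 0.857 FPKM in the group means, and TIAM2. TIAM2 was at 2.64 ± 0.358 FPKM in DMSO_EV, 2.30 ± 0.149 in Osi_Lin_EV, and 1.95 ± 0.148 for Osi_cIGF1R (SD, n = 3). The part of their reads in the TFB1M values was not tested.

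Within libraries, the ratio of TFAM to POLRMT was 0.321 ± 0.0869 in DMSO_EV, 0.199 ± 0.00953 in Osi_Lin_EV, and 0.424 ± 0.0606 for Osi_cIGF1R (SD, n = 3). The ratio of TFB2M to TFB1M was 2.17 ± 0.395, 1.27 ± 0.284 and 2.56 ± 0.633 in the same order (SD, n = 3). For both pairs Osi_Lin_EV lay below each other group with no overlap (exact permutation p = 0.1 for each difference). Osi_cIGF1R and DMSO_EV overlapped in both (exact permutation p = 0.3 for TFAM to POLRMT and 0.4 for TFB2M to TFB1M).

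**Figure D2:**
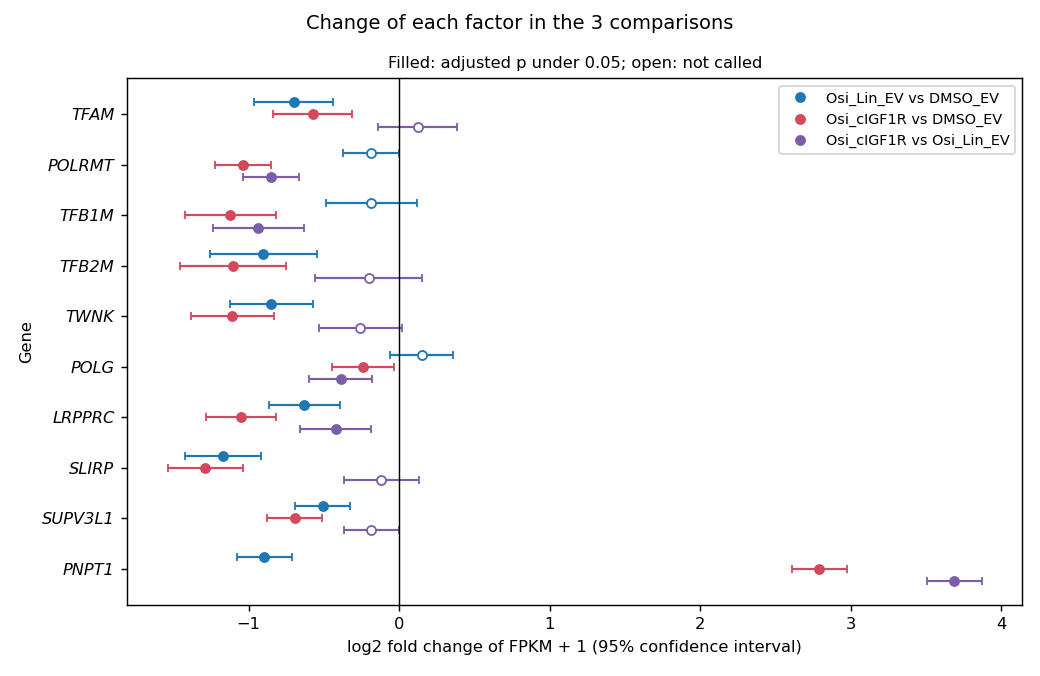
log2 fold change of FPKM + 1 with its 95% confidence interval (x axis) for each factor (y axis) in the 3 comparisons, by colour. Filled points have a limma adjusted p under 0.05. Apart from PNPT1 at 2.79 and 3.69, the called changes lie between -1.29 and -0.24.

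The 2 replication genes differed from each other. TWNK (chromosome 10, 100987543 to 100994403), the helicase, measured 4.68, 6.47 and 5.51 FPKM in DMSO_EV, 2.78, 3.04 and 2.08 in Osi_Lin_EV, and 2.19, 2.07 and 1.82 in Osi_cIGF1R. Both treated groups lay below vehicle and overlapped each other. TWNK fell by 0.85 on the log2 scale in Osi_Lin_EV (SE 0.13, limma adjusted p = 9.46e-05) and by 1.11 in Osi_cIGF1R (SE 0.13, limma adjusted p = 4.17e-06). Between the treated groups the value was -0.26, with a 95% interval of -0.53 to 0.02 (limma adjusted p = 0.0970).

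POLG (chromosome 15, 89316320 to 89334824), the polymerase subunit, had the smallest log2 fold changes of the 10 against DMSO_EV. It measured 9.88, 10.5 and 10.5 FPKM in DMSO_EV, 11.52, 12.03 and 11.09 in Osi_Lin_EV, and 9.43, 8.96 and 7.47 in Osi_cIGF1R. Osi_Lin_EV was highest and Osi_cIGF1R lowest, with no overlap between groups. POLG fell by 0.39 on the log2 scale from Osi_Lin_EV to Osi_cIGF1R (SE 0.10, limma adjusted p = 0.00345). Its value of -0.24 against DMSO_EV was called by a narrow margin (SE 0.10, limma adjusted p = 0.0403), and the adjusted p ran from 0.0213 to 0.142 over 20 alternatives, 13 of which ended the call. In Osi_Lin_EV against DMSO_EV the value was 0.15 (limma adjusted p = 0.207). POLG overlaps FANCI, a DNA repair gene, whose level was 13.6 ± 0.614 FPKM in DMSO_EV, 1.22 ± 0.148 in Osi_Lin_EV, and 2.01 ± 0.160 for Osi_cIGF1R (SD, n = 3). Whether counting used strand is not given in the sources used here, and the part of FANCI reads in the POLG values was not tested.

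The ratio of TWNK to POLG was 0.537 ± 0.0724 in DMSO_EV, 0.227 ± 0.0348 in Osi_Lin_EV, and 0.236 ± 0.00673 for Osi_cIGF1R (SD, n = 3). The treated groups were 2.37 and 2.27 times below vehicle (exact permutation p = 0.1 for each) and overlapped each other (exact permutation p = 0.9).

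**Figure D3:**
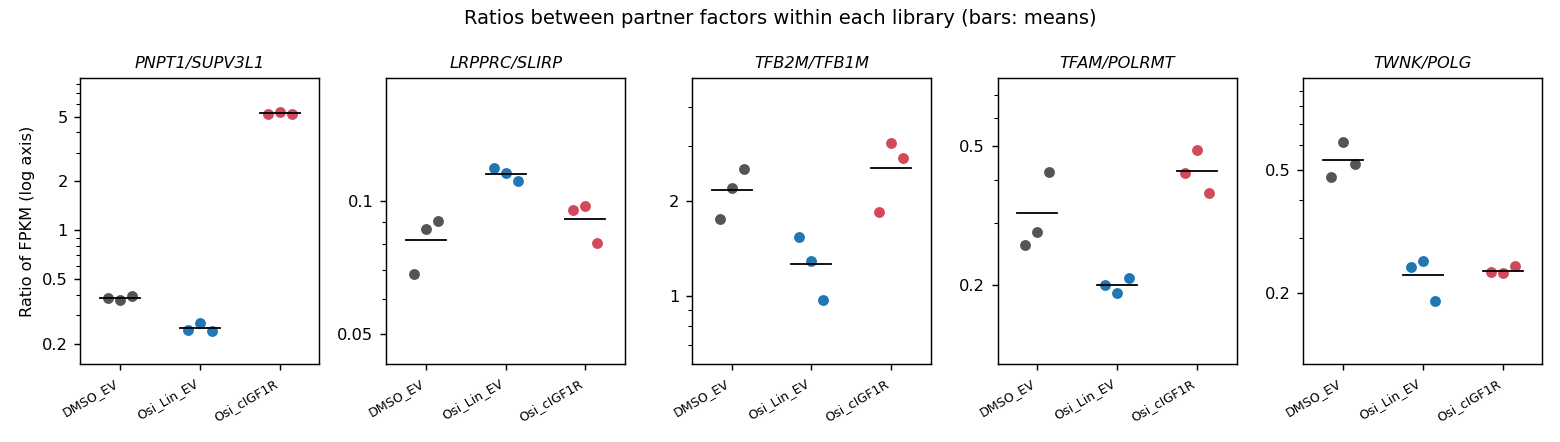
Ratio of the FPKM of paired factors within each library (y axis, log scale, a range of its own in each panel) by group (x axis). Points are libraries and bars are means. The PNPT1 to SUPV3L1 ratio averages 5.24 in Osi_cIGF1R against 0.381 and 0.250, and the TWNK to POLG ratio is low in both treated groups.

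The order of the 10 factors by level differed between groups. In DMSO_EV the order was SLIRP, LRPPRC, POLRMT, SUPV3L1, TFB2M, POLG, TFAM, TWNK, TFB1M and PNPT1. Neighbouring ranges overlapped there except between SLIRP and LRPPRC, POLRMT and SUPV3L1, and POLG and TFAM. In Osi_Lin_EV PNPT1 was again last, in ranges that overlapped those of TWNK. POLG stood above SUPV3L1 there with no overlap, the reverse of DMSO_EV, and POLRMT stood above LRPPRC with no overlap. In Osi_cIGF1R PNPT1 was second, below SLIRP and above LRPPRC with no overlap on either side, and TFB1M was last, overlapping TWNK.

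The mRNAs that these factors serve were measured in the same libraries. The 13 mRNAs of mitochondrial DNA made up 21.6 ± 5.17% of all FPKM in DMSO_EV, 20.4 ± 2.60% in Osi_Lin_EV, and 5.88 ± 0.572% for Osi_cIGF1R (SD, n = 3). Of the 13, 0 were called in Osi_Lin_EV against DMSO_EV, with a median log2 fold change of -0.21 that turned to 0.05 without DMSO_EV replicate 1. All 13 were lower in Osi_cIGF1R, with medians of -2.28 against DMSO_EV and -2.13 against Osi_Lin_EV. Under 3 other scalings all 13 were also called lower, and the medians came as near to 0 as -1.40 and -1.28. Under quantile normalization 1 of the 13 was called higher in Osi_Lin_EV. Beside these values, 6 factors (TFAM, TFB2M, TWNK, SLIRP, LRPPRC and SUPV3L1) were lower than vehicle in both treated groups. A further count, 4 (POLRMT, TFB1M, LRPPRC and POLG), were lower in Osi_cIGF1R than in each other group. In the single comparisons, 23.5% of all genes fell in Osi_Lin_EV and 35.8% in Osi_cIGF1R against DMSO_EV. Between the treated groups 34.8% were lower in Osi_cIGF1R. The share of all genes lower in both comparisons at once was not computed, so these counts cannot be read against it.

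Other genes of these pathways are given by counts of called members, beside the share of all genes tested that was called the same way. The gene lists here and below were chosen with earlier results of these data known. In Osi_Lin_EV against DMSO_EV 29.0% of all genes rose and 23.5% fell, with a median of 0.05. In Osi_cIGF1R against DMSO_EV 33.1% rose and 35.8% fell, with a median of -0.03. Of 6 further transcription factors of mitochondria, 2 rose and 2 fell in Osi_Lin_EV, and 0 rose and 2 fell in Osi_cIGF1R against DMSO_EV. Apart from the 0, these counts are near the shares of all genes. MRPL12, a ribosomal protein that also binds POLRMT, was at 113 ± 2.90 FPKM in DMSO_EV, 56.3 ± 1.06 in Osi_Lin_EV, and 23.2 ± 6.72 for Osi_cIGF1R (SD, n = 3), a log2 fold change of -2.27 in the last (limma adjusted p = 1.20e-08). MTERF3, a repressor of mitochondrial transcription, fell by 0.98 in Osi_cIGF1R (limma adjusted p = 3.02e-06). MTERF2 rose in Osi_Lin_EV from 2.55 to 4.57 FPKM and MTERF4 from 3.97 to 6.05. The median of the 6 was -0.11 in Osi_Lin_EV, and 0.02 without DMSO_EV replicate 3, and -0.12 in Osi_cIGF1R.

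Of 14 further genes of mitochondrial DNA replication and upkeep, 1 rose and 5 fell in Osi_Lin_EV, and 0 rose and 10 fell in Osi_cIGF1R (medians -0.26 and -0.47), beside 23.5% and 35.8% of all genes that fell. SSBP1, the single-stranded DNA-binding protein of the replication fork, was at 99.3 ± 5.70 FPKM in DMSO_EV, 59.7 ± 1.86 in Osi_Lin_EV, and 43.8 ± 6.59 for Osi_cIGF1R (SD, n = 3), lower in both. MGME1, a nuclease of mitochondrial DNA, fell in Osi_Lin_EV by 0.92 on the log2 scale (limma adjusted p = 2.11e-06). DNA2, a nuclease and helicase, fell in Osi_cIGF1R by 1.16 (limma adjusted p = 3.03e-07).

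Of 18 further genes of mitochondrial RNA processing and stability, 1 rose and 8 fell in Osi_Lin_EV and 1 rose and 13 fell in Osi_cIGF1R (medians -0.20 and -0.38), beside 23.5% and 35.8% of all genes that fell. HSD17B10, a subunit of mitochondrial RNase P, fell from 48.4 ± 4.29 FPKM in DMSO_EV to 17.9 ± 3.13 in Osi_cIGF1R (SD, n = 3). TRMT10C, another subunit, fell from 12.9 ± 2.18 to 6.45 ± 0.228 in Osi_Lin_EV (SD, n = 3). FASTK, the founding member of a family of mitochondrial RNA-binding proteins, rose from 47.9 ± 8.09 to 76.4 ± 3.06 in Osi_Lin_EV and was at 40.2 ± 5.53 in Osi_cIGF1R (SD, n = 3).

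Of 18 genes of mitochondrial RNA modification, 2 rose and 5 fell in Osi_Lin_EV and 1 rose and 14 fell in Osi_cIGF1R (medians -0.11 and -0.50). The 5 of 18 are near the 23.5% of all genes that fell in Osi_Lin_EV, and the 14 stand beside 35.8% in Osi_cIGF1R. PUS1, a pseudouridine synthase, fell from 10.0 ± 0.384 FPKM to 5.16 ± 0.297 and 2.03 ± 0.359 (SD, n = 3). GTPBP3, which modifies mitochondrial tRNA, was lower in Osi_cIGF1R by 1.33 on the log2 scale than in DMSO_EV (limma adjusted p = 2.33e-08).

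Among the nuclear regulators, 7 of 9 were tested, since PPARGC1A and PPARGC1B did not pass the filter. None of the 7 rose, 3 fell in Osi_Lin_EV and 5 fell in Osi_cIGF1R (medians -0.14 and -0.66), beside 23.5% and 35.8% of all genes. MYC, a growth-promoting transcription factor, fell from 25.4 ± 1.76 FPKM to 9.97 ± 0.345 in Osi_Lin_EV and 6.74 ± 0.209 in Osi_cIGF1R (SD, n = 3). PPRC1, a coactivator related to PGC-1, fell from 11.7 ± 0.792 to 4.90 ± 0.245 and 2.53 ± 0.380 (SD, n = 3). Of 12 genes for abundant mitochondrial proteins, 0 rose, 8 fell in Osi_Lin_EV and 11 fell in Osi_cIGF1R (medians -0.61 and -1.15), again beside 23.5% and 35.8% of all genes. TOMM40, the channel for protein import, stood at 64.4 ± 5.58, 25.2 ± 1.02 and 10.96 ± 1.70 FPKM, and HSPD1, a matrix chaperone, at 143 ± 20.7, 59.3 ± 5.995 and 26.5 ± 5.01 (SD, n = 3).

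**Figure D4:**
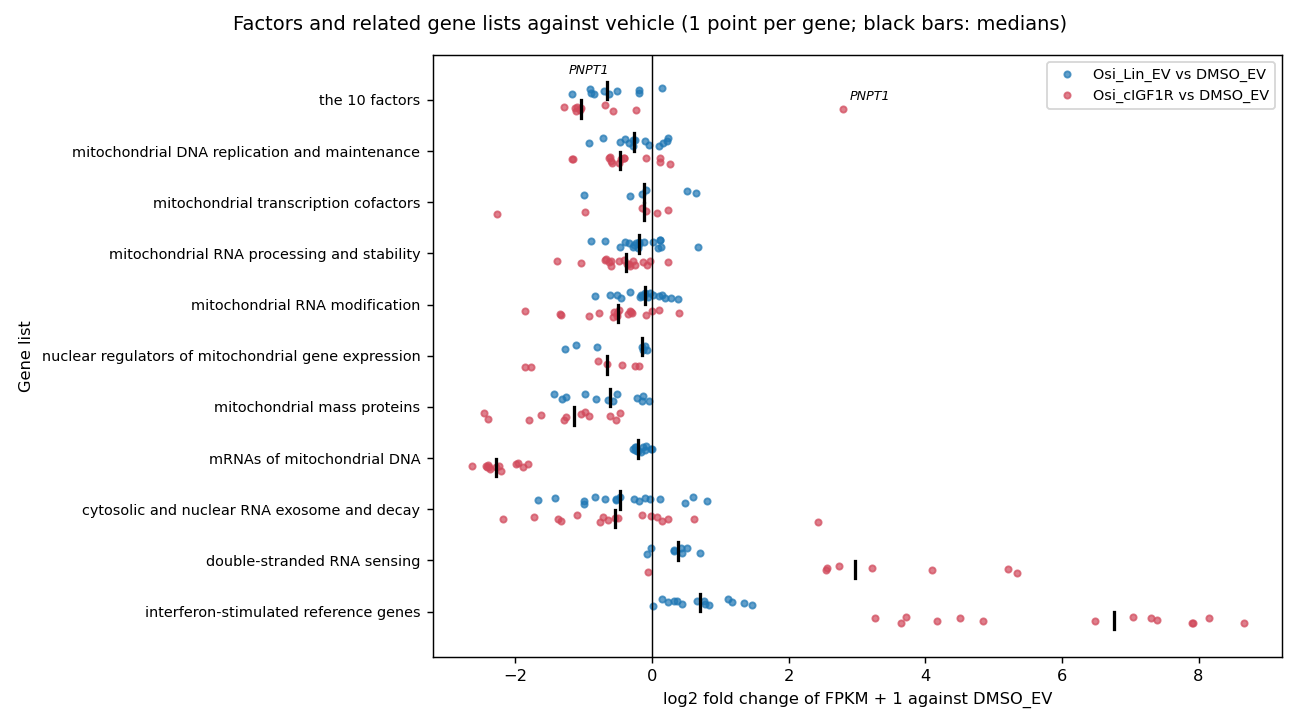
log2 fold change of FPKM + 1 against DMSO_EV (x axis) of the 10 factors and of the tested genes of each list (y axis). Points are genes, colours the treated groups and black bars the medians. In Osi_cIGF1R, PNPT1 at 2.79 lies apart from the other factors and below all 14 interferon-stimulated genes (smallest 3.27). It lies there among the genes of double-stranded RNA sensing (median 2.98), and in Osi_Lin_EV at -0.89, below that list (median 0.38).

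PNPT1 is known as an interferon-induced gene and as a nuclease that limits double-stranded mitochondrial RNA, so its values are set beside genes of both kinds. Of 14 interferon-stimulated genes, 11 rose and 0 fell in Osi_Lin_EV, and all 14 rose in Osi_cIGF1R against DMSO_EV (medians 0.71 and 6.76), beside 29.0% and 33.1% of all genes that rose. Of the 14, RSAD2 (0.00806, 0.0198 and 12.3 FPKM in DMSO_EV, Osi_Lin_EV and Osi_cIGF1R) and IFIT1 (0.421, 0.838 and 341) passed the filter through Osi_cIGF1R alone. Their calls in Osi_cIGF1R followed from the filter, and both are in the counts and medians. Of 8 genes of double-stranded RNA sensing, 6 rose and 0 fell in Osi_Lin_EV, and 7 rose and 0 fell in Osi_cIGF1R (medians 0.38 and 2.98), beside the same 29.0% and 33.1% of all genes. Of the 8, ZBP1 (0.0288, 0.0179 and 16.7 FPKM in DMSO_EV, Osi_Lin_EV and Osi_cIGF1R) also passed the filter through Osi_cIGF1R alone. Its call there followed from the filter, and in Osi_Lin_EV it is among the genes not called. The 6 in Osi_Lin_EV were 4 under median-of-ratios rescaling and 5 under quantile normalization, and from 4 to 6 over all alternatives. Between the treated groups, MAVS, the adaptor of the RNA sensors, was the 1 gene of that list that was lower in Osi_cIGF1R (log2 fold change -0.38, limma adjusted p = 0.00998), and it is named after its values were seen.

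IFIH1, a sensor of long double-stranded RNA, was at 0.771 ± 0.163 FPKM in DMSO_EV, 1.41 ± 0.224 in Osi_Lin_EV, and 70.8 ± 1.03 for Osi_cIGF1R (SD, n = 3). IFI6, a mitochondrial protein induced by interferon, was at 4.36 ± 0.185, 13.8 ± 0.492 and 1551 ± 321 FPKM (SD, n = 3). Both rose in each treated group. PNPT1 moved with them in Osi_cIGF1R and went the other way in Osi_Lin_EV, where IFIH1 rose by 0.45 (limma adjusted p = 0.0022), IFI6 by 1.46 (limma adjusted p = 4.61e-07) and PNPT1 fell by 0.89 on the log2 scale. In Osi_cIGF1R against DMSO_EV the rise of PNPT1, 2.79, was below the smallest of the 14 interferon-stimulated genes (IRF9, 3.27). Against Osi_Lin_EV its 3.69 lay within their range of 1.92 to 8.22.

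Exosome and exonuclease genes of the cytosol and nucleus, the counterparts of the SUPV3L1 and PNPT1 pair, were mixed. Of 17, 3 rose and 10 fell in each treated group against DMSO_EV (medians -0.47 and -0.54), beside 23.5% of all genes that fell in Osi_Lin_EV and 35.8% in Osi_cIGF1R. Of all genes, 29.0% and 33.1% rose. XRN1, the main cytoplasmic exonuclease that works from the 5′ end, rose from 2.86 ± 0.467 FPKM to 5.72 ± 0.231 in Osi_Lin_EV and 20.1 ± 4.76 in Osi_cIGF1R (SD, n = 3). EXOSC5, a subunit of the exosome ring that is related to bacterial RNase PH as PNPT1 is, fell from 29.1 ± 1.55 to 10.3 ± 0.429 and 5.74 ± 1.57 (SD, n = 3). EXOSC8 fell from 17.5 ± 0.758 to 4.84 ± 0.595 and 4.58 ± 0.445 (SD, n = 3). EXOSC9 was higher in Osi_cIGF1R than in Osi_Lin_EV by 0.98 on the log2 scale (limma adjusted p = 2.70e-06).

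Across the 9 libraries, the tested genes whose log2 values were most like those of PNPT1 were SORD2P (Pearson r = 0.998), LSM12, GLRX and INSIG1 (0.997 each) and ETS2 (0.996). Picked for that likeness, each of these also had its lowest mean in Osi_Lin_EV and its highest in Osi_cIGF1R, as PNPT1 did. GLRX, a glutaredoxin, averaged 9.001, 4.596 and 45.82 FPKM in DMSO_EV, Osi_Lin_EV and Osi_cIGF1R. INSIG1, a regulator of sterol synthesis, averaged 15.6, 9.04 and 61.2. The r of PNPT1 with the 14 interferon-stimulated genes ran from 0.787 (IRF9) to 0.971 (RSAD2). With the 8 genes of double-stranded RNA sensing it ran from -0.640 (MAVS) to 0.973 (EIF2AK2). Of all genes tested, 489 (3.55%) had an r with PNPT1 above 0.95.

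For SLIRP, which after PNPT1 had the largest log2 fold change of FPKM + 1 in Osi_cIGF1R against DMSO_EV, the genes most alike were LSM5 (0.998), HMGB3 (0.997), RFC4 (0.995), UBE2T (0.994) and SNHG15 (0.994), and 584 genes (4.24%) had an r above 0.95. All 5, picked for that likeness, averaged highest in DMSO_EV. LSM5, a subunit of an RNA-binding ring, averaged 9.49, 3.54 and 3.28 FPKM in the same order of groups. Among the factors themselves, r was 0.97 between SLIRP and SUPV3L1, 0.96 between LRPPRC and SUPV3L1, 0.95 between POLRMT and TFB1M, and -0.91 between PNPT1 and POLRMT. The 9 libraries form 3 groups that stand apart, so these r values describe mainly the group means.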

How the data were processed

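The deposited table of the 9 RNA-seq libraries lists 34021 genes by symbol, of which 913 were at 0 in every library. The file names no unit: the authors' deposited values are fractional with unequal totals, which points to FPKM, and show no steps of whole reads, so depth is unknown and count tests were not run. The submitters' processing notes name hg38, edgeR, STAR and Bowtie2 2.1.0 without saying what each was for. The counter, strand use and handling of reads shared with near-identical copies are not given in those notes or the labels. All samples carry 1 extraction protocol naming 3 days and RNase R, which digests linear RNA, while the RNA-seq labels give 8 days. The labels therefore do not settle whether RNase R was used, and with it levels would also depend on resistance to the enzyme. FPKM is a share of a library, so abundant transcripts that change shift all others.

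In R 4.3.3, limma 3.58.1 (trend, robust variance) was fitted once over the 9 libraries to log2(FPKM + 1) of the 13775 genes with at least 1 FPKM in at least 3 libraries. Benjamini-Hochberg adjusted p-values under 0.05 were called. For genes at low levels, fold changes of FPKM + 1 come out too small. This fit was first tested on simulated data. Ratios of partner genes were compared on the log2 scale with two-sided exact permutation tests in Python 3.11.15. The factors and the 10 gene lists were chosen with earlier results of these data known. Named genes were all 10 factors, up to 3 called genes of each list with the largest change in each comparison, and the 5 genes most like PNPT1 and SLIRP; the text gives the main ones. Positions and promoters are from RefSeq, GRCh38.p14, in which 31617 symbols (92.9%) matched. Replicate numbers did not pair the libraries: the deviations of same-numbered libraries correlated between -0.31 and 0.04 over 9 pairs. Alternatives were limma without a trend, other scalings, filters and pseudocounts, the compared groups only, a replicate block, a minimum fold change, and each library left out.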

Additional observations from a re-analysis of the deposited data

How the results depend on the processing

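Of 597 alternative values of the factors' log2 fold changes, 577 kept their direction and side of the threshold, 13 lost the call, 7 gained one and 0 reversed. All 13 losses were POLG in Osi_cIGF1R against DMSO_EV. Gained calls beside POLRMT were in Osi_cIGF1R against Osi_Lin_EV: SLIRP (limma adjusted p = 0.0207) and SUPV3L1 (0.0354) under quantile normalization, both without Osi_cIGF1R replicate 3 (0.0193 and 0.0437), and TWNK without Osi_Lin_EV replicate 3 (0.0297), against ranges up to 0.813, 0.254 and 0.316 over their alternatives. With an absolute log2 fold change of at least 1, the factors called lower were 1 of 10 in Osi_Lin_EV against DMSO_EV (SLIRP). In Osi_cIGF1R against Osi_Lin_EV they were 0, where limma without that minimum called 4. The other 124 of 126 alternative counts stayed within 1.5 times. These include Osi_cIGF1R against DMSO_EV with the minimum, where SLIRP, TFB1M, TWNK, TFB2M, LRPPRC and POLRMT stayed lower of the 9 called without it. The share of all genes called with that minimum was not computed. The log2 difference of the TWNK to POLG ratio between the treated groups was 0.0626, and ran from -0.0693 without Osi_Lin_EV replicate 3 to 0.146 without Osi_Lin_EV replicate 2. PNPT1 in Osi_cIGF1R against DMSO_EV ranged from 2.19 to 3.00 with the pseudocount and other settings, and was called in each.

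The replicate block, in libraries that share only a number, ended 1 call, POLG in Osi_cIGF1R against DMSO_EV (limma adjusted p = 0.0611). It left 7, 8 and 4 factors lower in Osi_Lin_EV against DMSO_EV, Osi_cIGF1R against DMSO_EV and Osi_cIGF1R against Osi_Lin_EV. Of the 13775 genes tested, 3081, 4800 and 4558 were lower under it in the same order. A filter at 5 FPKM gave no value for TWNK. Removing DMSO_EV replicate 2 and Osi_cIGF1R replicate 1 together, and the motif AANNGAAA, were chosen after seeing the data.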
